A study of Mus musculus with 8 samples.

Results

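The genes described here are 41 target genes and regulators of p53, the tumor suppressor that acts as a transcription factor after DNA damage. They were taken by name, and a probe set counted as a member's where its single annotated gene symbol, in its older or current form, was that name. Of the 41 genes, 38 had at least 1 such probe set, 79 probe sets in all among the 45101 on the array, and each gene was represented by the probe set with the highest mean over all arrays. The members were grouped by role into cell-cycle arrest (7 genes), cell death (15), DNA repair (4), metabolism (6) and feedback on p53 (9). Trp53 itself, the gene for p53, and its targets Bax and Gdf15 had no probe set named by that symbol alone and were not analysed here.

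RNA was measured on Affymetrix mouse genome arrays in neural stem cells (NSCs) derived from embryonic stem (ES) cells of the mouse and held in culture with EGF and FGF2. The 4 irr arrays hold NSCs harvested 7 days after 10 Gy of X-rays, during which the cells were not passaged, and the 4 non-irr arrays hold NSCs of the same kind that were not irradiated. How long the non-irr NSCs were held without passage is not given. Irradiation and days without passage therefore cannot be told apart here. The study used mostly NSCs of the E14Tg2a ES background, and no genetic alteration is given for the cells on either set of arrays. The submitters describe the 4 samples of each group as biological replicates, n = 4 arrays per group holds throughout, and all values are log2 signals after RMA normalization. Of 12 neural stem cell markers with a probe set, 10 exceeded an intensity of 100 (log2 6.64) on some array. Among them were Sox2, Vim, Fabp7, Nes, Pax6, Hes5 and Msi1, while Sox1 and Nr2e1 stayed under that intensity on all 8 arrays.

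p53 is a short-lived protein in unstressed cells, where the ubiquitin ligase Mdm2 and its partner Mdm4 hold it down. Kinases activated by DNA breaks free p53 from Mdm2, and p53 then binds DNA elements at its target genes, among them genes that halt the cell cycle, start apoptosis, repair DNA or restrain growth. Mdm2 and the phosphatase gene Ppm1d are targets too, so the response feeds back on p53. In neural stem cells p53 is known to limit proliferation and self-renewal.

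At day 7 after irr most of the measured members were higher than in non-irr NSCs. The largest differences of single genes lay among death and arrest genes, although most arrest genes differed by less. Of the 38 genes with a probe set, 32 exceeded an intensity of 100 on 1 array or more and were tested, and 6 stayed under it on all 8. In limma, with p-values adjusted over all probe sets past this filter, 28 members were called higher in irr NSCs, 2 were called lower and 2 did not pass the test at an adjusted p under 0.05. The same rule called 40.2% of all 11364 genes tested higher and 37.1% lower. An increase of at least 2-fold was found for 14 members, against 8.88% of all genes, and a decrease of that size for 0 members, against 6.16% of all genes. In limma's test against a 1.5-fold change, 16 members were called higher, against 13.5% of all genes, and 0 lower, against 10.1%. The median log2 fold change was 0.73 over the members tested and 0.01 over all genes tested.

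One member, Fas, passed the filter only through its irr arrays. Among genes with all 8 arrays over an intensity of 100, 27 of 31 members were called higher, against 39.8% of 10037 genes, 2 were called lower, against 37.8%, and 13 were at least 2-fold higher, against 7.23%. The groups of arrays did not overlap for 30 of the 32 members tested, against 73.4% of all genes tested. By role, death genes had a median log2 fold change of 1.92 (10 tested, 9 higher), metabolic genes 1.31 (4 tested, 4 higher), repair genes 0.47 (4 tested, 4 higher), arrest genes 0.44 (7 tested, 6 higher and 1 lower) and feedback genes 0.17 (7 tested, 5 higher and 1 lower). With Fas set at an intensity of 100 in non-irr NSCs, the median of the death genes was 1.80 and that of all members tested stayed at 0.73. Over all genes tested, 40.2% were called higher and 37.1% lower. The difference between roles was not tested.

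**Figure D1:**
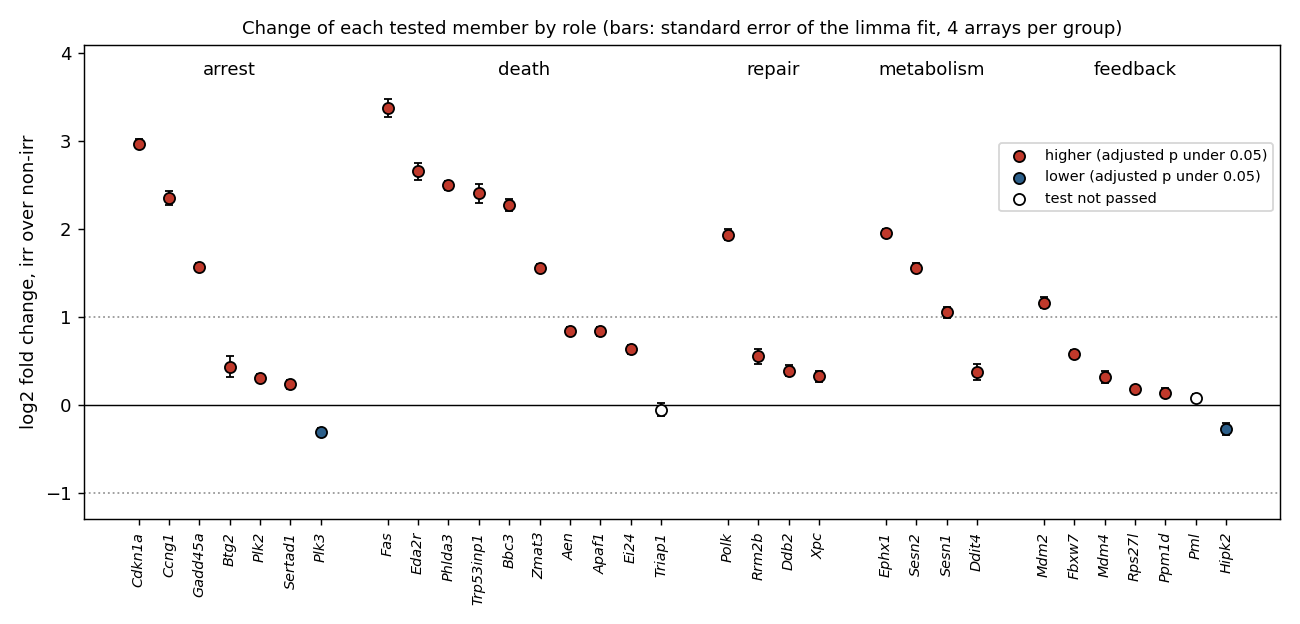
Log2 fold change, irr over non-irr NSCs, of the 32 members tested, ordered within each role from high to low. Bars are standard errors of the limma fit with 4 arrays per group, red and blue points are called higher and lower at an adjusted p under 0.05, and open points did not pass; the dotted lines mark a 2-fold change, which 14 members exceed upward and 0 downward, and Fas is drawn at its fitted value (3.38), above the lower bound given in the text.

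**Figure D2:**
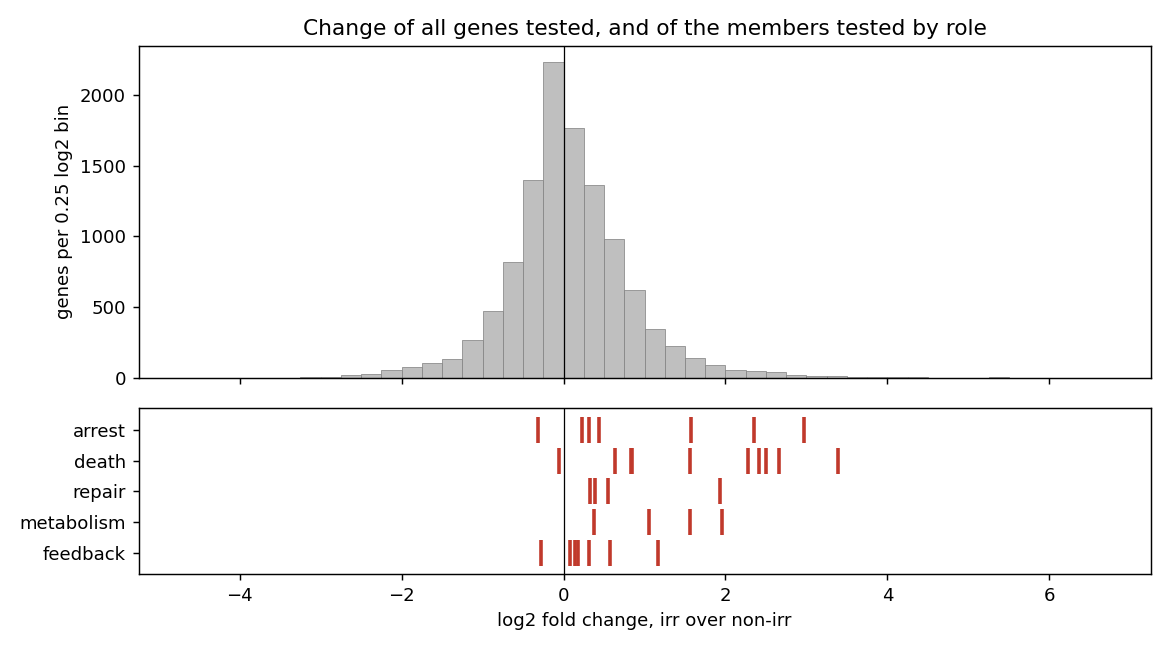
Upper panel, the number of genes per 0.25 of log2 fold change, irr over non-irr, for all 11364 genes tested; lower panel, each tested member as a tick in the row of its role. The bulk of all genes lies around 0 (median 0.01), and the ticks of the members lie mostly to the right of it (median 0.73).

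The replicates were close to one another. Over the members tested, the SD between arrays was 0.02 to 0.26 in irr NSCs (median 0.08, log2) and 0.01 to 0.21 in non-irr NSCs (median 0.07). The mean deviation of the 32 members from their non-irr means lay between 1.08 and 1.10 on the 4 irr arrays and between -0.02 and 0.03 on the 4 non-irr arrays. No array stood apart in this measure. Over all probe sets past the filter, arrays of 1 group correlated at r = 0.991 to 0.997 and arrays of different groups at 0.912 to 0.923. A principal component holding 3.68% of the variance separated irr replicates 1 and 2 from irr replicates 3 and 4. Without irr replicates 3 and 4, 28 members were called higher and 2 lower, and without irr replicates 1 and 2, 27 and 2.

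Several other measures moved with irr, though not all that were looked at. The array carries control probe sets toward either end of some transcripts, and the gap of the 3′ signal over the 5′ signal, a measure of RNA quality, was wider in irr NSCs for actin, 0.51 ± 0.07 against 0.26 ± 0.03 in non-irr NSCs (log2, SD; two-sided exact permutation test, p = 0.029, which is the lowest possible with 4 against 4 arrays, adjusted p = 0.038 over 4 controls). The gap was also wider for the transferrin receptor, 0.85 ± 0.24 in irr against 0.35 ± 0.21 in non-irr NSCs, and for pyruvate carboxylase, 1.06 ± 0.07 in irr against 0.52 ± 0.11 in non-irr NSCs, with the same exact permutation p for both. That p was 0.71 for Gapdh (-0.06 ± 0.03 in irr and -0.08 ± 0.04 in non-irr NSCs). Of 10 astrocyte markers tested 8 (80%) were higher and 2 (20%), Gfap and Aldoc, lower, against 40.2% and 37.1% of all genes tested. The summed level of the astrocyte markers lay at log2 15.49 to 15.61 in irr and 14.42 to 14.54 in non-irr NSCs. Gfap lay close to the intensity filter, at 6.56 to 6.64 in irr and 6.64 to 6.90 in non-irr NSCs. Its groups overlapped and its log2 fold change was -0.18, so its direction is uncertain here. Of the 10 neural stem cell markers tested 4 (40%) were higher (Sox2, Vim, Fabp7 and Slc1a3) and 3 (30%) lower (Pax6, Hes5 and Msi1). These shares are near those of all genes. The summed level of the neural stem cell markers lay at 15.89 to 15.97 in irr and 15.75 to 15.81 in non-irr NSCs. Of 8 mesenchymal markers 5 were tested, 4 (80%) were higher (Col3a1, Lum, Dcn and Postn) and 1 (20%), Acta2, was lower. The summed levels of the mesenchymal markers were 11.61 to 11.68 in irr and 10.75 to 10.82 in non-irr NSCs. Col3a1 lay at 11.10 to 11.20 in irr and 9.56 to 9.66 in non-irr NSCs, while Col1a1, Col1a2 and Pdgfrb were under an intensity of 100 on all arrays. On all arrays 7 of 8 microglia markers and 5 of 6 endothelial markers were under that intensity. Of 6 neuron markers tested, 2 (33.3%) were called higher and 3 (50%) lower. Of 3 oligodendrocyte and 2 pluripotent markers tested, 0 were called in either direction. The part of these measures in the members' differences was not tested, and in bulk RNA a change in the share of cells of 1 kind and a change in RNA per cell cannot be told apart.

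**Figure D3:**
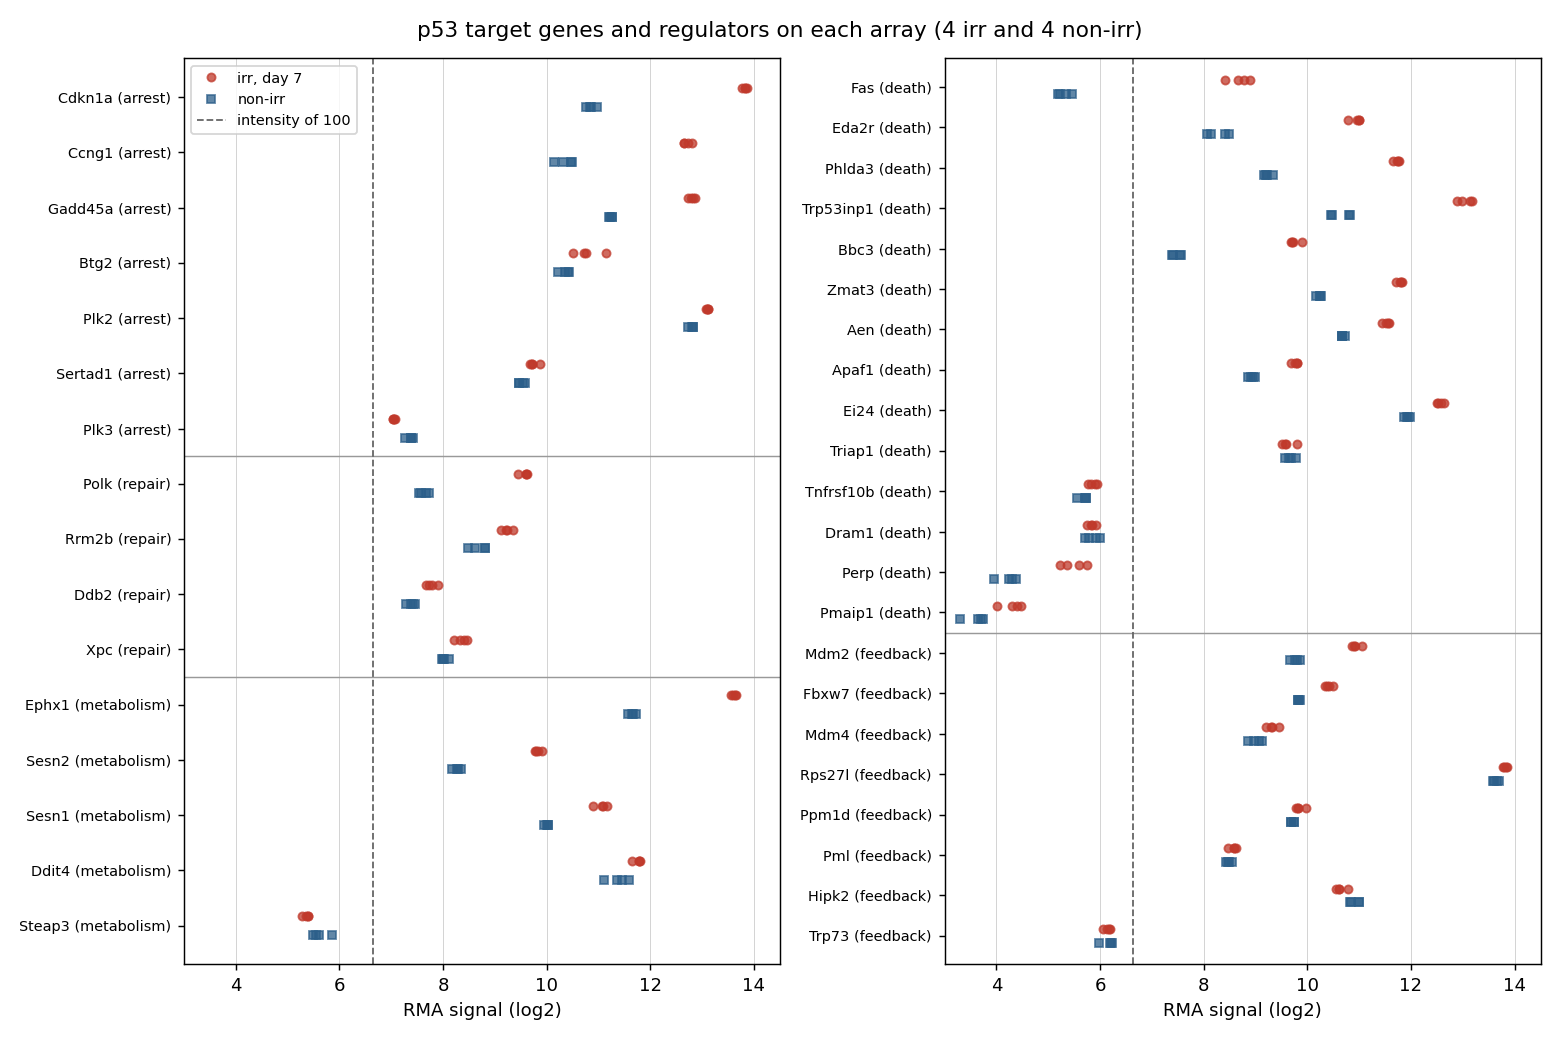
RMA signal (log2, horizontal axis) of each of the 38 members with a probe set on each of the 8 arrays, with irr arrays as red circles above non-irr arrays as blue squares, grouped by role. The dashed line is an intensity of 100; the 6 members left of it on every array were not tested, and Fas is the only member with all non-irr arrays left of it and all irr arrays right of it.

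p53 binds as a tetramer to a pair of decamers with a short spacer, and the promoters show how such elements lie at some of these genes. RefSeq promoter windows (GRCm38.p6), which run over 250 bases before and 50 bases after an annotated start, were found for 30 of the 38 members with a probe set, 45 windows in all. The p53 decamer consensus was searched on both strands, on which it reads alike, singly and as a pair with a spacer of at most 13 bases, with mismatches allowed only outside the central 4 bases of a decamer. At least 1 exact decamer lay in a window of 11 of the 30 members (36.7%), against 9.55% of 27025 genes with windows. A pair with at most 2 mismatches was found for 4 members (13.3%) and 2.47% of all genes, and with at most 3 mismatches for 7 members (23.3%) and 7.63% of all genes. A gene counted if any of its windows held the match, and the 27025 genes had 32851 windows, 8.36% of them with an exact decamer. The members were named as p53 targets and regulators beforehand, so their higher shares are not an independent result. These members carry the pair with the fewest mismatches, and the 120 bases around it are printed from the strand of the gene, with each decamer in capitals.
Cdkn1a, chr17:29090859-29090978, plus strand: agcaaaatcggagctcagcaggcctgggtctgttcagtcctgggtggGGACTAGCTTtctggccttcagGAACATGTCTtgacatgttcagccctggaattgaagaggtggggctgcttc
Rps27l, chr9:66946246-66946365, plus strand: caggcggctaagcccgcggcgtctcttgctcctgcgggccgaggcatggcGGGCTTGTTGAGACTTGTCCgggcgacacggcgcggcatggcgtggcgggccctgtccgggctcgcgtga
Pml, chr9:58249875-58249994, minus strand: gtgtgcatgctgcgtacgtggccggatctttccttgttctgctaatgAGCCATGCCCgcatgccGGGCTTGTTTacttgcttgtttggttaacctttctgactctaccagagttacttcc
Sesn1, chr10:41887204-41887323, plus strand: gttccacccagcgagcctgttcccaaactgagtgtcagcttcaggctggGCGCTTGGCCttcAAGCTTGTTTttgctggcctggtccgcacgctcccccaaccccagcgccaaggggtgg
Bbc3, chr7:16309436-16309555, plus strand: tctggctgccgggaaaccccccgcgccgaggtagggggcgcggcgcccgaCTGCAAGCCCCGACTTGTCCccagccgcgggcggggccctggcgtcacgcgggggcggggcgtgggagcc
Aen, chr7:78895887-78896006, plus strand: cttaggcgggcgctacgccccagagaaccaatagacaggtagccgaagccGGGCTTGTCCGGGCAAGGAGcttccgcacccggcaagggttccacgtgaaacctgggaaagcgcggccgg
Mdm4, chr1:133025547-133025666, minus strand: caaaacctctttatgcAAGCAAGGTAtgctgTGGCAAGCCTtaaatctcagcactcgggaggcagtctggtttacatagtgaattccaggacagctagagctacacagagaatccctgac
Cdkn1a holds a pair with 0 mismatches and a spacer of 12 bases, from 73 to 42 bases before 1 of its 2 annotated starts. Its second decamer also forms a pair, with no spacer and 1 mismatch, with the decamer TGACATGTTC that directly follows it, printed in lower case above. Rps27l and Pml hold a pair with 1 mismatch, Sesn1 with 2, and Bbc3, Aen and Mdm4 with 3. The number of mismatches did not order the fold changes. Cdkn1a and Bbc3 had log2 fold changes of 2.97 and 2.27, Rps27l one of 0.17 and Pml one of 0.08 that did not pass the test. Over all genes tested that hold such a pair with at most 2 mismatches, 44.6% of 186 were called higher, beside 40.2% of all genes. A match is a description of letters, and elements further away or within introns lie outside these windows.

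**Figure D4:**
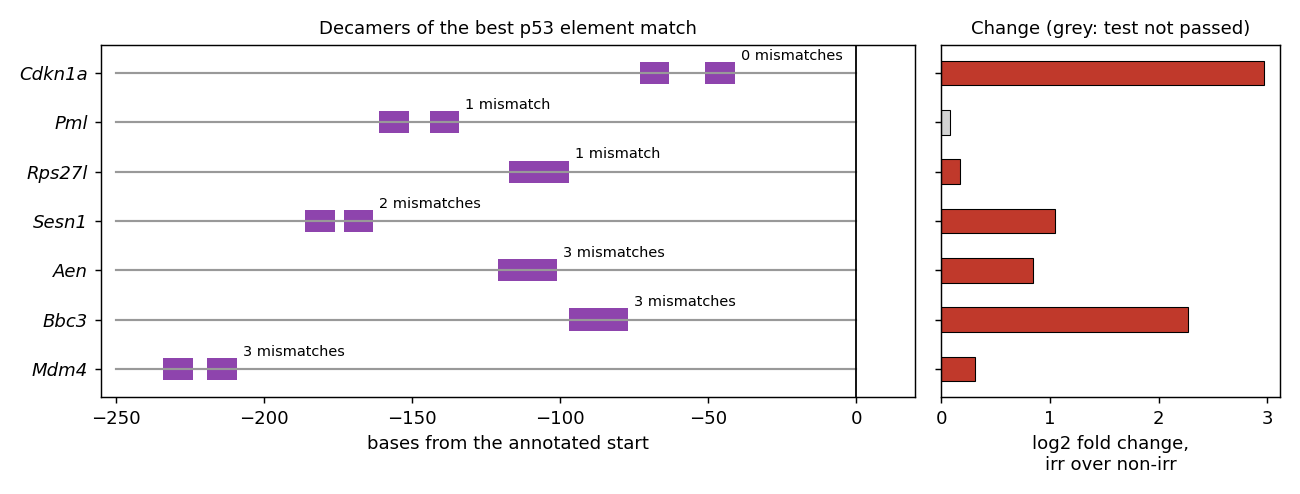
Left, position of the paired p53 decamers (purple) relative to the annotated start at 0, in bases, in the promoter windows of the 7 members with a pair of at most 3 mismatches, from 0 mismatches at the top to 3 at the bottom. Right, log2 fold change of the same gene, irr over non-irr, red where called higher and grey for Pml, which did not pass the test; the longest bars, Cdkn1a (2.97) and Bbc3 (2.27), have 0 and 3 mismatches.

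Among the arrest genes the inhibitor of cyclin-dependent kinases Cdkn1a, which encodes p21, differed most. Its log2 signal was 13.77, 13.87, 13.83 and 13.83 on the irr arrays, against 10.85, 10.83, 10.97 and 10.76 on the non-irr arrays. The groups lie far apart, and Cdkn1a was 7.85-fold higher (log2 2.97, standard error 0.05, adjusted p = 2.7e-10 from limma). Its other probe set gave 2.83. Ccng1, the gene of cyclin G1, which brings a phosphatase to Mdm2, read 12.72, 12.80, 12.66 and 12.64 in irr NSCs, against 10.32, 10.47, 10.48 and 10.14 in non-irr NSCs. It was 5.11-fold higher with no overlap (log2 2.35, standard error 0.08, adjusted p = 5.3e-09 from limma), and its other probe sets gave 2.43 and 1.95 on the log2 scale. Gadd45a, a stress protein that binds cell-cycle and repair factors, read 12.74, 12.86, 12.78 and 12.83 in irr NSCs, against 11.22, 11.26, 11.26 and 11.20 in non-irr NSCs. The groups were separate and the difference was 2.97-fold (log2 1.57, standard error 0.04, adjusted p = 1.9e-09 from limma).

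The remaining arrest genes differed by less. Btg2, an antiproliferative cofactor of mRNA deadenylation, read 11.14, 10.73, 10.77 and 10.52 in irr NSCs, against 10.43, 10.35, 10.42 and 10.21 in non-irr NSCs. The groups did not overlap, but irr replicate 4 lay only just above the highest non-irr array, and irr replicate 1 lay above the other irr arrays. Its log2 fold change was 0.44 (standard error 0.12, adjusted p = 7.1e-03 from limma), its other probe set gave 1.07, and without irr replicates 1 and 2 the value was 0.29. The polo-like kinase gene Plk2 lay at 13.07 to 13.12 in irr and 12.73 to 12.82 in non-irr NSCs and was higher by 0.31, and Sertad1, whose protein binds Cdk4 and E2F partners, was higher by 0.23. Plk3, another stress-responsive polo-like kinase, was lower. It lay at 7.03 to 7.07 in irr and 7.26 to 7.42 in non-irr NSCs, fell by 0.31 on the log2 scale (adjusted p = 1.9e-04 from limma), and lies close to the intensity filter. With arrays centred on reference genes its log2 fold change was -0.14.

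Death genes had the highest median of the roles. Of the 10 tested 6, Fas among them, were at least 2-fold higher, against 8.88% of all genes tested. Fas encodes a death receptor at the cell surface and read 8.42, 8.66, 8.90 and 8.78 in irr NSCs, against 5.35, 5.22, 5.19 and 5.46 in non-irr NSCs. All non-irr arrays were under an intensity of 100 and all irr arrays over it, which puts its increase at 4.13-fold or more, a lower bound set at that intensity. Because Fas passed the filter only through its irr arrays, no p-value is given for it. Eda2r, a receptor of the same TNF receptor family, read 10.99, 10.99, 10.78 and 10.95 in irr NSCs, against 8.05, 8.40, 8.49 and 8.15 in non-irr NSCs. That is 6.31-fold with no overlap (log2 2.66, standard error 0.10, adjusted p = 9.6e-09 from limma). Phlda3, which competes with Akt for membrane lipids, read 11.66, 11.76, 11.76 and 11.72 in irr NSCs, against 9.17, 9.20, 9.33 and 9.21 in non-irr NSCs. It was 5.65-fold higher, again without overlap (log2 2.50, standard error 0.05, adjusted p = 3.8e-10 from limma). Trp53inp1, a stress protein that promotes p53 activity and autophagy, read 13.14, 13.18, 12.88 and 12.99 in irr NSCs, against 10.46, 10.80, 10.83 and 10.47 in non-irr NSCs. It was 5.31-fold higher with the groups apart (log2 2.41, standard error 0.10, adjusted p = 2.7e-08 from limma), and by its dimmer probe set, under an intensity of 100 on all non-irr arrays, it was at least 1.43-fold higher.

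The BH3-only gene Bbc3, which encodes the mitochondrial death activator PUMA, lay at 9.68 to 9.91 in irr and 7.39 to 7.56 in non-irr NSCs, and was 4.84-fold higher (log2 2.27, adjusted p = 2.3e-09 from limma). Zmat3, an RNA-binding zinc finger protein, was 2.95-fold higher. Smaller increases were found for the nuclease gene Aen (0.84 on the log2 scale, with 0.67 and 1.03 by other probe sets and at least 1.12-fold by one whose non-irr arrays were all under an intensity of 100), for Apaf1, the scaffold of the apoptosome (0.84, and 0.51 by its other probe set), and for Ei24, an endoplasmic reticulum protein of autophagy (0.63). Triap1, a small mitochondrial protein that counters apoptosis, read 9.58, 9.57, 9.80 and 9.50 in irr NSCs, against 9.68, 9.64, 9.78 and 9.57 in non-irr NSCs. The groups overlapped and the test was not passed (-0.06, standard error 0.07, adjusted p = 0.50 from limma), and its sign turned to 0.11 when arrays were centred on reference genes.

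For 4 death genes with a probe set the signal stayed under an intensity of 100 on all arrays, and they were not tested. Perp, a membrane protein of desmosomes, lay at 5.23 to 5.75 in irr and 3.96 to 4.39 in non-irr NSCs. The BH3-only gene Pmaip1 lay at 4.02 to 4.47 in irr and 3.31 to 3.73 in non-irr NSCs. For both the irr arrays were the higher ones at a signal whose level is uncertain. Tnfrsf10b, the mouse TRAIL receptor gene, lay at 5.76 to 5.93 in irr and 5.56 to 5.74 in non-irr NSCs, and Dram1, a lysosomal protein of autophagy, at 5.74 to 5.93 in irr and 5.71 to 5.99 in non-irr NSCs, where the groups overlapped.

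All 4 repair genes were called higher, 1 of them by more than 2-fold, against 40.2% and 8.88% of all genes tested. Polk encodes DNA polymerase kappa, which copies past damaged bases, and read 9.61, 9.62, 9.45 and 9.61 in irr NSCs, against 7.58, 7.74, 7.68 and 7.55 in non-irr NSCs. The groups were well apart, with a 3.83-fold difference (log2 1.94, standard error 0.06, adjusted p = 3.2e-09 from limma). By its dimmer probe set, under an intensity of 100 on all non-irr arrays, Polk was at least 1.43-fold higher. Rrm2b, the p53-inducible small subunit of ribonucleotide reductase, read 9.22, 9.35, 9.12 and 9.24 in irr NSCs, against 8.61, 8.82, 8.80 and 8.47 in non-irr NSCs. All irr arrays exceeded all non-irr arrays, at a log2 fold change of 0.55 (standard error 0.08, adjusted p = 2.0e-04 from limma). Ddb2, which recognizes damaged bases in nucleotide excision repair, read 7.66, 7.89, 7.79 and 7.74 in irr NSCs, against 7.45, 7.29, 7.42 and 7.37 in non-irr NSCs. Xpc, which acts at the same step, read 8.40, 8.22, 8.33 and 8.46 in irr NSCs, against 8.11, 7.98, 8.02 and 8.002 in non-irr NSCs. Neither gene's groups overlapped, and the log2 fold changes were 0.39 for Ddb2 (adjusted p = 2.4e-04 from limma) and 0.32 for Xpc (adjusted p = 7.0e-04 from limma).

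Metabolic members were higher too. Ephx1, an epoxide hydrolase that detoxifies reactive compounds, read 13.56, 13.59, 13.64 and 13.66 in irr NSCs, against 11.65, 11.58, 11.67 and 11.73 in non-irr NSCs. The 3.88-fold difference was many times the spread within either group (log2 1.96, standard error 0.05, adjusted p = 8.9e-10 from limma). The sestrins restrain the growth kinase complex mTORC1 when cells are stressed. Sesn2 read 9.80, 9.91, 9.83 and 9.78 in irr NSCs, against 8.35, 8.27, 8.17 and 8.28 in non-irr NSCs, and Sesn1 read 11.07, 10.90, 11.08 and 11.16 in irr NSCs, against 10.03, 10.01, 10.02 and 9.95 in non-irr NSCs. Both pairs of groups were apart, and Sesn2 was 2.95-fold (adjusted p = 5.4e-09 from limma) and Sesn1 2.07-fold higher (adjusted p = 1.5e-07 from limma). Ddit4, which inhibits the same complex, read 11.64, 11.78, 11.80 and 11.79 in irr NSCs, against 11.45, 11.35, 11.11 and 11.59 in non-irr NSCs. Its irr arrays lay just above the highest non-irr array, and the log2 fold change was 0.37 (standard error 0.09, adjusted p = 4.7e-03 from limma). Steap3, a reductase of iron uptake, stayed under an intensity of 100 at 5.29 to 5.39 in irr and 5.49 to 5.85 in non-irr NSCs.

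The genes that act back on p53 had the lowest median of the roles. Mdm2, the main ubiquitin ligase of p53, read 10.91, 11.05, 10.89 and 10.86 in irr NSCs, against 9.66, 9.79, 9.85 and 9.76 in non-irr NSCs. Of the 7 feedback genes tested it was the only one with at least a 2-fold change, at 2.24-fold (log2 1.16, standard error 0.06, adjusted p = 8.0e-08 from limma), with 1.12 by its other probe set past the filter. Fbxw7, the substrate receptor of a ubiquitin ligase for cyclin E and Myc, read 10.50, 10.38, 10.34 and 10.42 in irr NSCs, against 9.82, 9.83, 9.85 and 9.83 in non-irr NSCs. The groups were separate, and the log2 fold change was 0.57 by the brightest probe set (adjusted p = 2.1e-06 from limma) and by the other. Rps27l, a ribosomal protein that binds Mdm2, was higher by 0.17 (adjusted p = 5.4e-03 from limma), and all 3 of its probe sets carry identifiers that mark probes shared between transcripts. The signal of its near-identical relative Rps27, which may share these probes, was 7.90 to 8.07 in irr and 7.97 to 8.24 in non-irr NSCs (adjusted p = 0.27 from limma). Every tested probe set of Mdm2 and of the repair gene Ddb2 also carries an identifier that marks probes shared between transcripts.

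Mdm4, the partner that blocks the activation domain of p53, was read in opposite directions by its probe sets. The brightest gave 9.32, 9.45, 9.21 and 9.30 in irr NSCs, against 8.86, 8.97, 9.12 and 9.06 in non-irr NSCs, and was called higher (0.32, standard error 0.07, adjusted p = 2.4e-03 from limma). The other probe set past the filter gave 6.31, 6.30, 6.53 and 6.48 in irr NSCs, against 6.97, 6.94, 6.75 and 7.06 in non-irr NSCs. Its irr arrays were all under an intensity of 100, so it passed the filter only through its non-irr arrays. No p-value is given for it, and the decrease is given as at least 1.22-fold. Neither pair of groups overlapped, and the arrays give no settled direction for Mdm4. Ppm1d, the phosphatase Wip1 that reverses p53 phosphorylation, read 9.98, 9.81, 9.78 and 9.82 in irr NSCs, against 9.74, 9.68, 9.68 and 9.73 in non-irr NSCs. The groups lay next to each other, the call was marginal (0.14, standard error 0.05, adjusted p = 0.040 from limma) and was lost in 11 of 21 alternatives, and its other probe set gave 0.01. Pml, the organizer of nuclear bodies in which p53 is modified, read 8.59, 8.47, 8.62 and 8.59 in irr NSCs, against 8.49, 8.47, 8.44 and 8.54 in non-irr NSCs. These overlapped and did not pass the test (0.08, adjusted p = 0.16 from limma), while its other probe set past the filter was called higher (0.47, adjusted p = 2.2e-05 from limma).

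Hipk2, a kinase that phosphorylates p53 after severe damage, was the only feedback gene called lower by its brightest probe set. It read 10.78, 10.62, 10.62 and 10.55 in irr NSCs, against 10.85, 10.99, 10.83 and 11.00 in non-irr NSCs. All irr arrays lay below all non-irr arrays, irr replicate 1 only narrowly (-0.27, standard error 0.07, adjusted p = 3.6e-03 from limma). Of its 7 probe sets past the filter, 6 were called lower, down to -0.90, and the other did not pass at -0.07. The dimmest of those called lower had all irr arrays under an intensity of 100 and passed the filter only through non-irr arrays. With arrays centred on reference genes the call was lost (-0.11, adjusted p = 0.19 from limma). Trp73, the p53 relative p73, was under an intensity of 100 on all arrays, at 6.05, 6.16, 6.20 and 6.13 in irr NSCs, against 6.22, 6.19, 5.99 and 6.24 in non-irr NSCs, with overlapping groups.

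Across the members, 60 of the 79 probe sets were past the filter, of which 48 were called higher, 8 lower and 4 did not pass, while of all 21919 probe sets past it 38% were called higher and 37.1% lower. For 18 members more than 1 probe set was past the filter, and for 14 of these all such probe sets had the same call. The exceptions were Mdm4, Ppm1d, Pml and Hipk2, all genes of feedback. These counts include probe sets that passed the filter only through the group where their signal is high. They are the probe set of Fas and dimmer probe sets of Aen, Trp53inp1, Polk, Mdm4 and Hipk2.

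**Figure D5:**
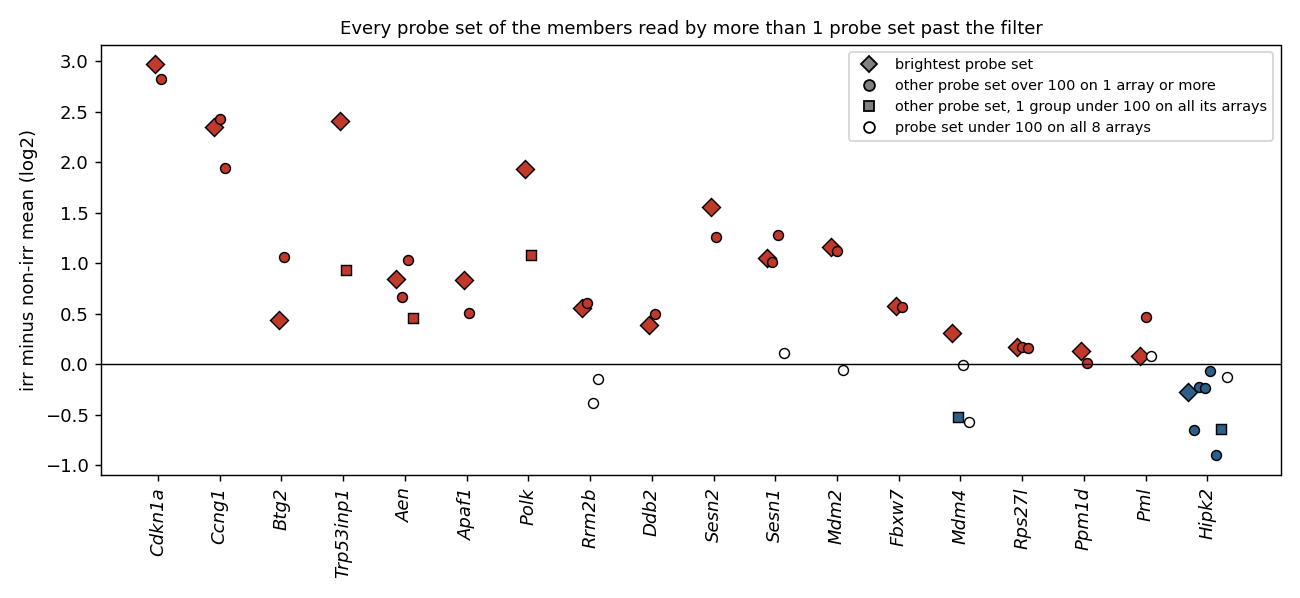
Difference of the group means, irr minus non-irr (log2), for every probe set of the 18 members read by more than 1 probe set past the filter. Diamonds are the brightest probe set of a gene, filled circles other probe sets past the filter, squares those with all arrays of 1 group under an intensity of 100, drawn at their measured means although only a bound holds, and open circles probe sets under an intensity of 100 on all arrays; filled symbols are red above 0 and blue below it. Cdkn1a probe sets lie together at 2.97 and 2.83, while those of Mdm4 lie on both sides of 0.

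Other genes of the pathway were looked at in a pair of lists. Of 39 further p53 targets, 36 had a probe set and 33 were tested, and 24 (72.7%) were called higher and 5 (15.2%) lower, against 40.2% and 37.1% of all genes. The other 4 did not pass, and the median log2 fold change was 0.69. At least 2-fold higher were 14 (42.4%), against 8.88% of all genes tested. The largest changes of this list were Rprm, which encodes the cell-cycle arrest protein reprimo (8.82-fold, adjusted p = 2.4e-09 from limma), the adenylate kinase gene Ak1 (4.91-fold), the phosphatase gene Ptp4a3 (4.37-fold) and the sugar reductase gene Dcxr (4.36-fold). Rprm read 10.41, 10.48, 10.61 and 10.61 in irr NSCs, against 7.29, 7.29, 7.67 and 7.29 in non-irr NSCs. Those called lower were Pcna, the replication clamp (-0.66), Wrap53, a telomerase cofactor (-0.65), the growth factor gene Tgfa (-0.45), Tigar, a phosphatase of sugar metabolism (-0.28), and Ckap2, a spindle protein (-0.22).

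Of 36 enzymes and cofactors that modify p53 or Mdm2, 33 had a probe set and 32 were tested. Of these 10 (31.25%) were called higher and 16 (50%) lower, against 40.2% and 37.1% of all genes tested. The other 6 did not pass, and the median log2 fold change was -0.15. At least 2-fold lower were 3 (9.38%), against 6.16% of all genes tested. The largest changes were decreases, in the checkpoint kinase genes Chek1 (-1.61, standard error 0.09, adjusted p = 1.6e-07 from limma) and Chek2 (-1.21, standard error 0.06, adjusted p = 1.1e-07 from limma), in the arginine methyltransferase gene Prmt5 (-1.27) and in the lysine methyltransferase gene Kmt5a (-0.97). Cdkn2a, whose product Arf inhibits Mdm2, was under an intensity of 100 on all arrays. With arrays centred on reference genes, 13 of these genes were called higher and 10 lower. The difference between these lists and the members was not tested.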

How the data were processed

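RNA of 4 irr and 4 non-irr NSC samples was hybridized to 1 Affymetrix array each. Intensities had been read with GCOS and normalized by RMA, which corrects background, equalizes quantiles and summarizes each probe set, and the values used here are the log2 values as the authors deposited them for 45101 probe sets; detection calls were not used here. Probe sets were named from the platform annotation, with symbols updated through the Entrez number for 34754 of the 34958 with 1 symbol; 932 with several symbols and 9211 listed with none were left out of results by gene. Probe sets over an intensity of 100 on at least 1 array (21919) were tested with limma 3.58.1 in R 4.3.3, two-sided, with Benjamini-Hochberg adjustment over them, and each gene was represented by its brightest probe set over 8 arrays, which left 11364 genes. A fold written as at least a number sets the dimmer group at an intensity of 100. The number of arrays limits the precision.

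The members, gene lists, tests and alternatives were chosen with earlier results of these data known. Every member is named; values on every array are given for the 4 called members of each role with the largest change, for the genes of the p53 family, Mdm2, Mdm4 and Ppm1d, for members that did not pass, and for members whose probe sets were called in opposite directions, and of the other lists the 4 called genes with the largest change are named, with genes called lower, Rprm by array and Cdkn2a added after their values were seen. Replicate numbers were not used as pairs in the main fit, and whether they pair the samples was not settled. Alternatives were other intensity filters, centring on array medians or on 7 reference genes, quantile normalization again, limma with array weights, a replicate block or trend and robust settings, a test against a 1.5-fold change, other rules for probe sets, and arrays left out. Promoter windows came from RefSeq. Figures were drawn with matplotlib.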

Additional observations from a re-analysis of the deposited data

Results flagged for a closer look

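In the groups of 4 arrays of the 38 members with a probe set, 76 groups in all, 4 had 1 array whose gap to the nearest of the others exceeded the critical value of Dixon's test as a share of the group's range, and chance gives about 1 in 20 groups, or 3.8. Bbc3 read 9.91 on irr replicate 3, against 9.71 on the nearest irr array (ratio 0.850). Polk read 9.45 on the same array, against 9.61 on the nearest (ratio 0.908). Ddit4 read 11.64 on irr replicate 1, against 11.78 on the nearest irr array (ratio 0.885). Tnfrsf10b, under an intensity of 100 throughout, read 5.56 on non-irr replicate 3, against 5.71 on the nearest non-irr array (ratio 0.856). The calls of Bbc3, Polk and Ddit4 held when each array was left out in turn.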

How the results depend on the processing

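Of 668 values of the 32 members under up to 21 alternatives each, 651 kept their direction and their side of the threshold, and 27 members did so in all of theirs. The exceptions by gene were Mdm4, whose value turned to -0.10 with the mean of all probe sets and to -0.52 with plain identifiers, where another probe set, with its irr arrays under an intensity of 100, stands for the gene, Triap1, which turned to 0.11 with arrays centred on reference genes, Hipk2 and Ppm1d, which lost their call in 1 and 11 alternatives, and Pml, which gained a call as higher from centring on reference genes (0.25) and from averaging its probe sets (0.28). The cause was not tested. Against a 1.5-fold change, 16 members were called higher and 0 lower, beside 13.5% and 10.1% of all genes tested. When 1 array had to exceed an intensity of 200, members called lower numbered 1. Plk3 stayed under that intensity and was not tested there, and all 31 members tested kept their call. With arrays centred on reference genes members called lower also numbered 1. Further p53 targets called lower numbered 3 in each of these settings, and the brightest probe sets of Tigar and Tgfa stayed under an intensity of 200. Modifiers and cofactors called lower numbered 10 with arrays centred on reference genes. That centring moved the median log2 fold change of all genes from 0.01 to 0.17 and the share of higher ones among genes changed at least 2-fold from 59.0% to 73.4%, and the reference genes themselves changed (1 of 7 higher, 4 lower). When each array was left out in turn, 27 to 28 members were called higher and 2 lower. Same-numbered irr and non-irr arrays deviated together with r between -0.21 and 0.51, and differently numbered ones with r between -0.48 and 0.38. So few arrays do not settle whether the numbers pair the samples. With a replicate block 28 members were called higher and 2 lower, with 8797 genes called in place of 8783. Probe sets near an intensity of 100 give the least certain values.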
